A study of Mus musculus with 20 samples.

Results

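Uteri of mice that received both RU486 and an intrauterine dose of peripheral blood mononuclear cells (the PBMC group) were compared with uteri of untreated pregnant mice (the control group). The libraries were chosen by the treatment given in their labels, which selected 10 of the 20 RNA-seq libraries of the series, 5 PBMC and 5 control, with 1 library for each mouse. The other 10 libraries entered the same fit, 5 from the IF group (RU486 without cells) and 5 from the PBMC-hCG group (RU486 with cells cultured with human chorionic gonadotropin). IF values are given only where they show what the PBMC contrast holds. All animals were wild-type B6D2F1 females, 8 to 12 weeks old, that had been mated with males, and the morning of the vaginal plug counted as day 0.5. In the PBMC group, mononuclear cells from the blood of non-pregnant mice, cultured without the hormone, were placed in the uterine horns under anesthesia on day 1.5, and RU486 was injected under the skin on the morning of day 3.5. Control mice received neither. One uterine horn per mouse was collected at 18:00 on day 3.5, before embryos attach. Because the control mice had no RU486, no intrauterine procedure, no medium and no cells, the PBMC contrast alone cannot tell the parts of these apart. The IF mice had RU486 alone. Procedure, medium and cells were always given together in these libraries and cannot be told apart from one another.

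RU486 (mifepristone) blocks the progesterone receptor and the glucocorticoid receptor, nuclear hormone receptors that bind closely related DNA elements and share some target genes. In early mouse pregnancy progesterone stops the growth of the uterine epithelium and prepares the stroma, while a surge of estrogen shortly before attachment switches on glandular Lif and opens the window of implantation. Lists of genes known to respond to each hormone were therefore examined.

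Each library held values for 45777 genes as TPM, a length-scaled share of all transcripts, and since TPM sums to the same total in every library the sequencing depth is unknown. Between 22702 and 23668 genes were above 0 in the 10 libraries. The 18706 genes above 0 in all 20 libraries were tested. Expression of uterine markers matched the labelled tissue: stromal Hoxa11 was at 194 to 229 TPM in control and 80.1 to 126 TPM in PBMC mice, epithelial Krt18 at 191 to 372 and 312 to 381 TPM, and smooth muscle Myh11 at 469.9 to 629.9 and 466 to 639 TPM. Of 10 markers of preimplantation embryos, Cdx2, Zp3 and Zfp42 were listed at 0 in all 10 mice, and the summed level of the list was 3.29 to 6.68 TPM in control and 3.32 to 5.68 TPM in PBMC mice. Whole uterus is a mixture of tissues, and a lower value can mean fewer cells of a type or less RNA per cell, which cannot be told apart here.

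Control replicate 2 stood apart from the other control mice. Its correlation with them across genes was 0.961 to 0.966, against 0.982 to 0.992 among the other 4 control mice, and its Euclidean distance from the group mean was 76.1, against 36.2 to 52.1. It had the lowest level of the proliferation gene Mki67 (1.14 TPM, other control mice 10.4 to 18.2), of Lif (0.976 TPM) and of Ihh (4.83 TPM, others 12.9 to 47.4). It had the highest level of the implantation serine protease gene Prss28 (4739 TPM) and of the fat cell gene Fabp4 (242 TPM, others 3.43 to 8.74). The summed level of 8 adipose markers was 715 TPM in this mouse, 8.86 to 43.8 TPM in the other control mice and 10.5 to 63.8 TPM in the PBMC mice, and its part in the results was not tested. Control replicate 5 shared the high Prss28 (1206 TPM) and low Lif (3.08 TPM) but not the low Mki67 (18.2 TPM). The results that rest on these mice are given with and without control replicate 2. The mean distance of a mouse from its group mean was 39.8 ± 8.03 (SD, n = 5) for PBMC and 48.4 ± 16.6 (SD, n = 5) for control mice, a difference that an exact two-sided permutation test did not separate (p = 0.349). Without control replicate 2 the control value was 36.7.

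In the PBMC group 3653 of 18706 genes (19.5%) differed from control at an adjusted p under 0.05 (limma, Benjamini-Hochberg), 2400 higher (12.8%) and 1253 lower (6.7%). Most differences were small: 2265 of the 3653 were under 1.5-fold, and the median fold of all 3653 was 1.39. By the criterion for differentially expressed genes (DEGs), a change of at least 2-fold with a raw p under 0.05, 337 genes were upregulated and 288 downregulated (625 genes, 3.34% of those tested), and 551 of the 625 also had an adjusted p under 0.05. The share of higher genes depended on scaling. It was 65.7% with TPM as deposited, 56.6% (1993 of 3524) after median scaling and 53.6% (1991 of 3718) after quantile normalization, while the median log2 difference of all genes moved from 0.05 to 0.01 under either scaling. Among DEGs the split was 309 to 311 and 295 to 322 under the same scalings. Without control replicate 2, 4628 genes (24.7%) passed, 2652 higher and 1976 lower. The reference genes Gapdh (log2 fold change -0.01, adjusted p = 0.959) and Rplp0 (0.08, adjusted p = 0.353) were not called, but Rplp0 was called as higher after quantile normalization (0.13, adjusted p = 0.03), where 2 of 8 reference genes were called instead of 1.

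Among the largest falls were Zbtb16 and Hif3a, which belong to the glucocorticoid-responsive genes, and Il13ra2, which belongs to the progesterone-responsive genes. Zbtb16, a zinc finger transcription factor gene (chromosome 9, 48651797 to 48836225, mm10), was at 32.3, 46.3, 33.9, 37.04 and 31.6 TPM in the 5 control mice and at 2.69, 2.75, 1.92, 3.09 and 1.66 TPM in the 5 PBMC mice. It fell 14.6-fold (log2 fold change -3.87 ± 0.23 (SE), adjusted p = 3.78e-09), and the lowest control mouse was more than 10 times above the highest PBMC mouse. Il13ra2, the decoy receptor of interleukin 13 (chromosome X, 147383478 to 147429192), went from 30.8, 57.00, 35.6, 43.6 and 44.2 TPM to 2.42, 2.54, 2.01, 3.85 and 1.32 TPM (log2 fold change -4.11 ± 0.25 (SE), adjusted p = 4.27e-09), the largest fall of all named genes. Hif3a, a hypoxia-inducible factor subunit (chromosome 7, 17030993 to 17062427), was at 6.35, 8.01, 7.49, 8.12 and 4.38 TPM in control and 0.957, 0.962, 0.606, 0.791 and 0.393 TPM in PBMC mice (log2 fold change -3.07 ± 0.25 (SE), adjusted p = 1.72e-07).

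Other genes with large falls were Tcf23, a basic helix-loop-helix factor of the decidualizing stroma, Cd36, a fatty acid transporter, and Sult1d1, a sulfotransferase. In Tcf23 control mice lay at 127, 166, 146, 142 and 139 TPM and PBMC mice at 28.9, 21.6, 23.8, 18.6 and 17.5 TPM (log2 fold change -2.72 ± 0.12 (SE), adjusted p = 6.08e-11). Cd36 fell from a range of 20.2 to 46.1 TPM to one of 3.08 to 5.15 TPM (log2 fold change -3.00 ± 0.23 (SE), adjusted p = 5.42e-08). Sult1d1 fell from a range of 115 to 173 TPM to one of 11.1 to 18.00 TPM (log2 fold change -3.10 ± 0.28 (SE), adjusted p = 4.09e-07). The list of the 10 largest falls also held Cyp1b1, an estrogen-hydroxylating cytochrome P450 (log2 fold change -2.67 ± 0.47), the potassium channel gene Kcnd2 (-2.64 ± 0.28), the melanin-concentrating hormone receptor gene Mchr1 (-2.88 ± 0.33) and the uncharacterised BB123696 (-3.09 ± 0.25), all with an adjusted p of 5.24e-04 or less. The lists of the 10 largest falls and rises were limited to genes whose PBMC and control mice did not overlap, so that separation was set by the choice of genes.

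**Figure D1:**
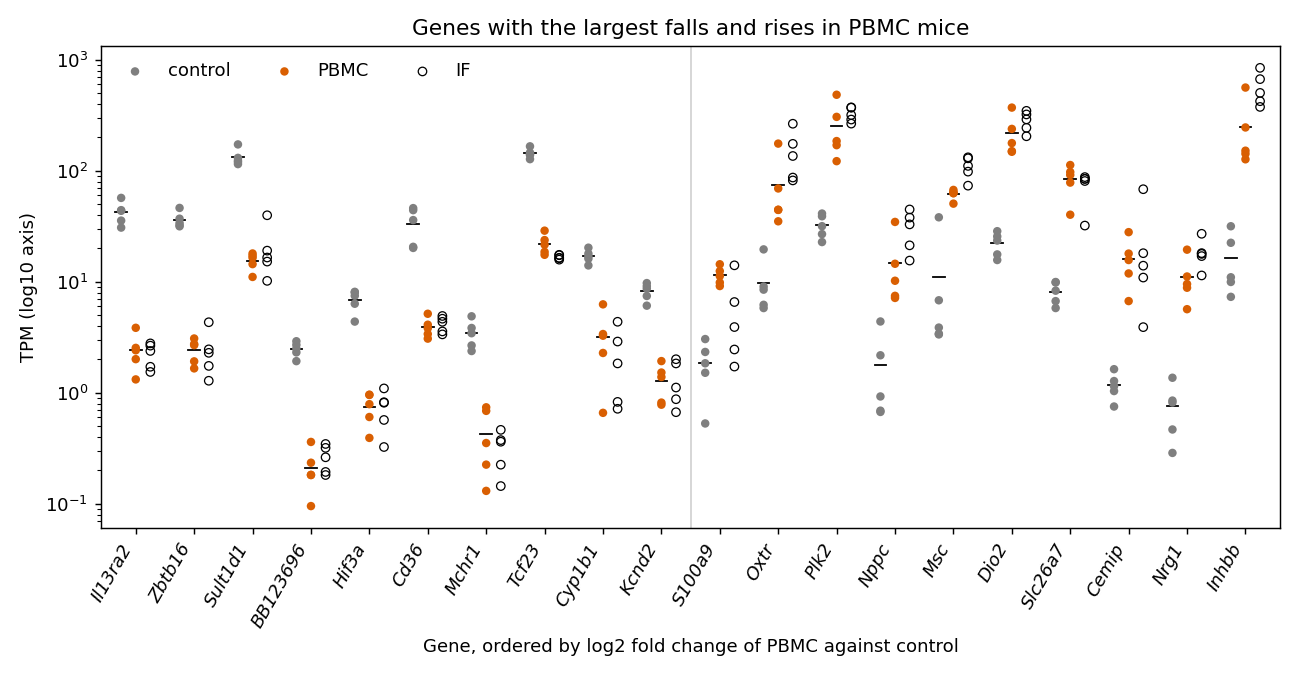
TPM (log10 axis) of the 10 named genes that fell most and the 10 that rose most in the PBMC group, with 1 point for each of the 5 control mice (grey), the 5 PBMC mice (orange) and the 5 IF mice (open circles), and short lines at the control and PBMC means. Zbtb16 and Il13ra2 lie below 4 TPM in all PBMC mice and above 30 TPM in all control mice, and Inhbb lies at 127 TPM or more in PBMC mice and at 31.7 TPM or less in control mice.

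Most glucocorticoid-responsive genes fell. Of the 18 genes listed, 10 fell and 3 rose, which is 72.2% called against 19.5% of all genes, and the median log2 fold change was -0.63 against 0.05 for all genes. Fkbp5, a chaperone of steroid receptors, fell from 43.3, 31.8, 44.8, 44.2 and 49.4 TPM to 10.1, 11.9, 11.96, 10.2 and 13.8 TPM (log2 fold change -1.87 ± 0.15 (SE), adjusted p = 8.70e-08). Tsc22d3, the glucocorticoid-induced leucine zipper, fell from 113, 203, 118, 106 and 90.9 TPM to 59.1, 53.2, 50.6, 62.02 and 32.5 TPM (log2 fold change -1.27 ± 0.22 (SE), adjusted p = 5.11e-04). The groups did not overlap in either, which held for 12.7% of all genes tested. Mt2, a metallothionein, fell from a range of 274 to 635 TPM to one of 213 to 268 TPM (log2 fold change -1.02 ± 0.19 (SE), adjusted p = 7.03e-04). Errfi1, an inhibitor of the epidermal growth factor receptor, fell from a range of 165 to 267 TPM to one of 51.3 to 142 TPM (log2 fold change -1.24 ± 0.24 (SE), adjusted p = 0.00131). The clock gene Per1 fell less (log2 fold change -0.68 ± 0.14 (SE), adjusted p = 0.00151). Dusp1, a phosphatase that stops MAP kinases and that growth factors also induce, went the other way, from 22.6, 31.7, 22.4, 29.2 and 51.4 TPM to 30.2, 50.9, 69.8, 66.2 and 120.2 TPM (log2 fold change 1.03 ± 0.32 (SE), adjusted p = 0.0306), but its groups overlapped and 6 of the 10 fits that left out a mouse took it out of the call (adjusted p up to 0.0806). Without control replicate 2 the list had 10 lower and 4 higher members, in a fit that called 1976 of 18706 genes lower and 2652 higher.

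The progesterone-responsive genes did not move one way. Of 22 listed, 21 were tested, of which 5 rose, 5 fell and 11 did not pass, with a median log2 fold change of 0.08. The share called was 47.6%, against 19.5% of all genes, with 23.8% higher (against 12.8%) and 23.8% lower (against 6.7%). The homeobox genes Hoxa10 and Hoxa11 give the stroma its competence to decidualize, and both fell. Hoxa10 was at 250.1 to 281 TPM in control and 103 to 170.1 TPM in PBMC mice (log2 fold change -0.81 ± 0.13 (SE), adjusted p = 3.20e-04), and Hoxa11 followed (log2 fold change -1.02 ± 0.12 (SE), adjusted p = 1.06e-05). Fst, the activin-binding protein follistatin, fell too (log2 fold change -1.44 ± 0.38 (SE), adjusted p = 0.0106). Cyp26a1, which breaks down retinoic acid, rose from a range of 89.05 to 173 TPM to one of 219 to 291 TPM (log2 fold change 1.15 ± 0.13 (SE), adjusted p = 9.05e-06). Wnt4, a signal of decidualization, rose from 4.53, 3.12, 4.79, 5.004 and 7.05 TPM to 16.3, 18.6, 28.01, 11.7 and 54.4 TPM (log2 fold change 2.21 ± 0.41 (SE), adjusted p = 9.24e-04), with PBMC replicate 5 at the top. Wnt4 is on the study's list of PCR primers, so its direction is not independent evidence. Ihh, the epithelial hedgehog signal, was at 47.4, 4.83, 39.4, 39.5 and 12.9 TPM in control and 30.6, 30.4, 61.5, 29.5 and 55.1 TPM in PBMC mice and was not called (log2 fold change 0.86 ± 0.57 (SE), adjusted p = 0.327). Hand2, the stromal factor that restrains epithelial growth, fell (log2 fold change -0.57 ± 0.15 (SE), adjusted p = 0.0134), but was not called when only the compared groups were fitted (adjusted p = 0.0628) or without control replicates 2 and 5 (log2 fold change -0.29, adjusted p = 0.0792).

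Of 8 receptor genes tested, 3 were higher (37.5%, against 12.8% of all genes) and none lower. Pgr, the progesterone receptor gene, was at 52.1, 38.03, 42.3, 53.1 and 44.1 TPM in control and 105, 108, 121, 102 and 149.5 TPM in PBMC mice (log2 fold change 1.34 ± 0.14 (SE), adjusted p = 2.56e-06). Esr1, the estrogen receptor gene, rose from a range of 97.99 to 115 TPM to one of 141 to 166 TPM (log2 fold change 0.47 ± 0.06 (SE), adjusted p = 1.62e-05). Nr3c1, the glucocorticoid receptor gene, rose from a range of 18.7 to 21.4 TPM to one of 22.8 to 28.9 TPM (log2 fold change 0.40 ± 0.08 (SE), adjusted p = 0.00179). In all 3 every PBMC mouse was above every control mouse, which held for 8.65% of all genes tested. Esr1 and Nr3c1 are on the study's list of PCR primers, so their direction is not independent evidence. The other 5 tested members of the receptor list were not called, although Pgrmc2, a membrane progesterone receptor component, passed as lower without control replicate 2 (log2 fold change -0.19, adjusted p = 0.045).

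Promoter sequence is shown for 4 genes because their windows hold one of the elements searched, and because these genes moved by at least 2-fold. RefSeq windows of 300 bases (250 before and 50 after a transcription start, GRCm38.p6, the mm10 assembly) were at hand for 13072 of the tested genes. The element shared by the progesterone and glucocorticoid receptors, searched as GNACA and its reverse complement TGTNC with 3 bases between them, was in the windows of 57 genes (0.436%), or 2 of 161 genes that fell at least 2-fold (1.24%) and none of 200 that rose as much. The 2 were Slc10a6 and Gnmt. The palindromic estrogen response element, GGTCA and TGACC 3 bases apart, was in 4 genes (0.0306%), 1 of the 200 (0.5%) and 1 of the 161 (0.621%). They were Pde10a (log2 fold change 1.30) and 4933406B17Rik (log2 fold change -1.54). The cyclic AMP response element TGACGTCA was in 422 genes (3.23%), 10 of the 200 (5%) and 6 of the 161 (3.73%). All 3 motifs read the same on both strands, so 1 search covers both. Slc10a6, a transporter of sulfated steroids, fell from a range of 10.97 to 20.8 TPM to one of 3.89 to 6.895 TPM (log2 fold change -1.27 ± 0.16 (SE), adjusted p = 2.00e-05). The 250 bases before each start follow, 5′ to 3′ on the strand of the gene, with the element in capitals. They are those of Slc10a6 (chr5:103629404-103629653, minus strand, receptor element), Dio2 (chr12:90739039-90739288, minus strand), Plk2 (chr13:110394794-110395043, plus strand) and Errfi1 (chr4:150854820-150855069, plus strand), the last 3 with the cyclic AMP element.
Slc10a6: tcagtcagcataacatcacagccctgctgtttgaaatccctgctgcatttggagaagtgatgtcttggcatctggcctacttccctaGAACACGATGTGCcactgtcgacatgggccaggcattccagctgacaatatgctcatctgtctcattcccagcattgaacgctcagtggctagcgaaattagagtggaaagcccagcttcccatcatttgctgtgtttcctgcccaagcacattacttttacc
Dio2: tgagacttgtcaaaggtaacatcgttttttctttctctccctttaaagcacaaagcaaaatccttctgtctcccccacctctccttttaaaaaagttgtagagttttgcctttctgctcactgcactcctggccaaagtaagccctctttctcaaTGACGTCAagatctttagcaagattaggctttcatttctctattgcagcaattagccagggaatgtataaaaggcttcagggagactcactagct
Plk2: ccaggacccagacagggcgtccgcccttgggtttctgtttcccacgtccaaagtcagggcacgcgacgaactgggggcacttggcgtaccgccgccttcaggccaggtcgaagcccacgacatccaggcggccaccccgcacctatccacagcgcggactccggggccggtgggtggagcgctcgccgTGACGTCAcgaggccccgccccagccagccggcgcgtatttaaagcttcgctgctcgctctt
Errfi1: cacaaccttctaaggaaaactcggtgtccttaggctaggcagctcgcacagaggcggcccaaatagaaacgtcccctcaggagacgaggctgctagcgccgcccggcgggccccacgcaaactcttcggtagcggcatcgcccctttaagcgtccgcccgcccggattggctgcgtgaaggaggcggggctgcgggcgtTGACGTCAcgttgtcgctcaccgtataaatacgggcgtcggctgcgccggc
The elements lie 163, 95, 62 and 51 bases before the start. Dio2 and Plk2 rose and Errfi1 fell, so genes with the same letters near their starts moved in both directions. A match describes letters only.

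Among the largest rises were Inhbb and Plk2, which belong to the early estrogen-responsive genes, and genes of signalling and transport. Inhbb, which codes for a subunit of activin and inhibin (chromosome 1, 119415463 to 119422248), was at 7.32, 31.7, 9.97, 10.99 and 22.5 TPM in control and 142, 152, 246, 127 and 562 TPM in PBMC mice (log2 fold change 3.86 ± 0.50 (SE), adjusted p = 2.91e-05). Nrg1, a ligand of ErbB receptors (chromosome 8, 31807452 to 32891609), was at 0.467, 1.37, 0.288, 0.851 and 0.819 TPM and 9.55, 8.84, 11.2, 5.67 and 19.5 TPM (log2 fold change 3.71 ± 0.35 (SE), adjusted p = 9.10e-07). In both genes the highest mouse was PBMC replicate 5. Dio2, which activates thyroid hormone, rose from 23.5, 28.6, 17.7, 25.6 and 15.7 TPM to 178, 148, 238, 150.4 and 371 TPM (log2 fold change 3.23 ± 0.27 (SE), adjusted p = 1.63e-07). Plk2, a stress-inducible kinase of the polo family, rose from 38.9, 22.8, 26.9, 41.2 and 31.7 TPM to 122, 170.2, 306, 185 and 484 TPM (log2 fold change 2.83 ± 0.34 (SE), adjusted p = 1.24e-05). Cemip, which degrades hyaluronan (log2 fold change 3.56 ± 0.51), the anion exchanger gene Slc26a7 (3.31 ± 0.31), the natriuretic peptide gene Nppc (3.09 ± 0.53) and the transcription factor gene Msc (3.21 ± 0.46) rose as well, all with an adjusted p of 3.80e-04 or less. With Inhbb, Nrg1 and Dio2 they made up the rises of more than 8-fold among the 10 largest rises named by rule. Msc was at 38.1 TPM in control replicate 2 and at 3.36 to 6.82 TPM in the other control mice, and its log2 fold change without that mouse was 3.85.

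Of 26 early estrogen-responsive genes, 13 rose, 2 fell and 11 did not pass (57.7% called against 19.5%), with a median log2 fold change of 0.83. Inhbb, Ramp3, Gadd45g, Vegfa, Adamts1, Adamts4 and other members of the list are on the study's list of PCR primers. How the study chose them is not stated. The gene list was drawn up with the study's results known, so its direction is not independent evidence. Ramp3, a partner of the calcitonin-like receptors, rose from 26.8, 77.01, 23.4, 29.8 and 21.6 TPM to 110.2, 111, 149, 98.1 and 311 TPM (log2 fold change 2.16 ± 0.41 (SE), adjusted p = 0.00102). Gadd45g, a growth arrest gene, rose from 57.4, 39.9, 44.7, 62.2 and 93.4 TPM to 129.5, 178, 281, 169 and 473 TPM (log2 fold change 1.95 ± 0.36 (SE), adjusted p = 7.27e-04). PBMC replicate 5 was the highest of the 10 mice in both. The immediate early gene Fos was at 24.6, 10.7, 21.8, 65.1 and 74.3 TPM and 50.6, 77.8, 147, 170.2 and 272 TPM (log2 fold change 1.98 ± 0.55 (SE), adjusted p = 0.016), with control replicates 4 and 5 inside the PBMC range. Nr4a1, another immediate early gene, overlapped too (log2 fold change 2.16 ± 0.64 (SE), adjusted p = 0.0233) and lost the call without PBMC replicate 3, 4 or 5 or control replicate 3 (adjusted p 0.0541 to 0.0661). Igf1, the growth factor that estrogen induces in stroma, fell from 167, 114, 162, 184 and 118 TPM to 41.2, 40.1, 38.5, 41.7 and 37.4 TPM (log2 fold change -1.88 ± 0.16 (SE), adjusted p = 2.32e-07), and the PBMC mice lay closer together than the control mice did. Egr1, whose protein is an immediate early transcription factor, was among the 11 that did not pass (adjusted p = 0.0657). However, Egr1 was called without PBMC replicate 1 or control replicate 5 (lowest adjusted p 0.0241) and with a replicate block (adjusted p = 0.0475).

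**Figure D2:**
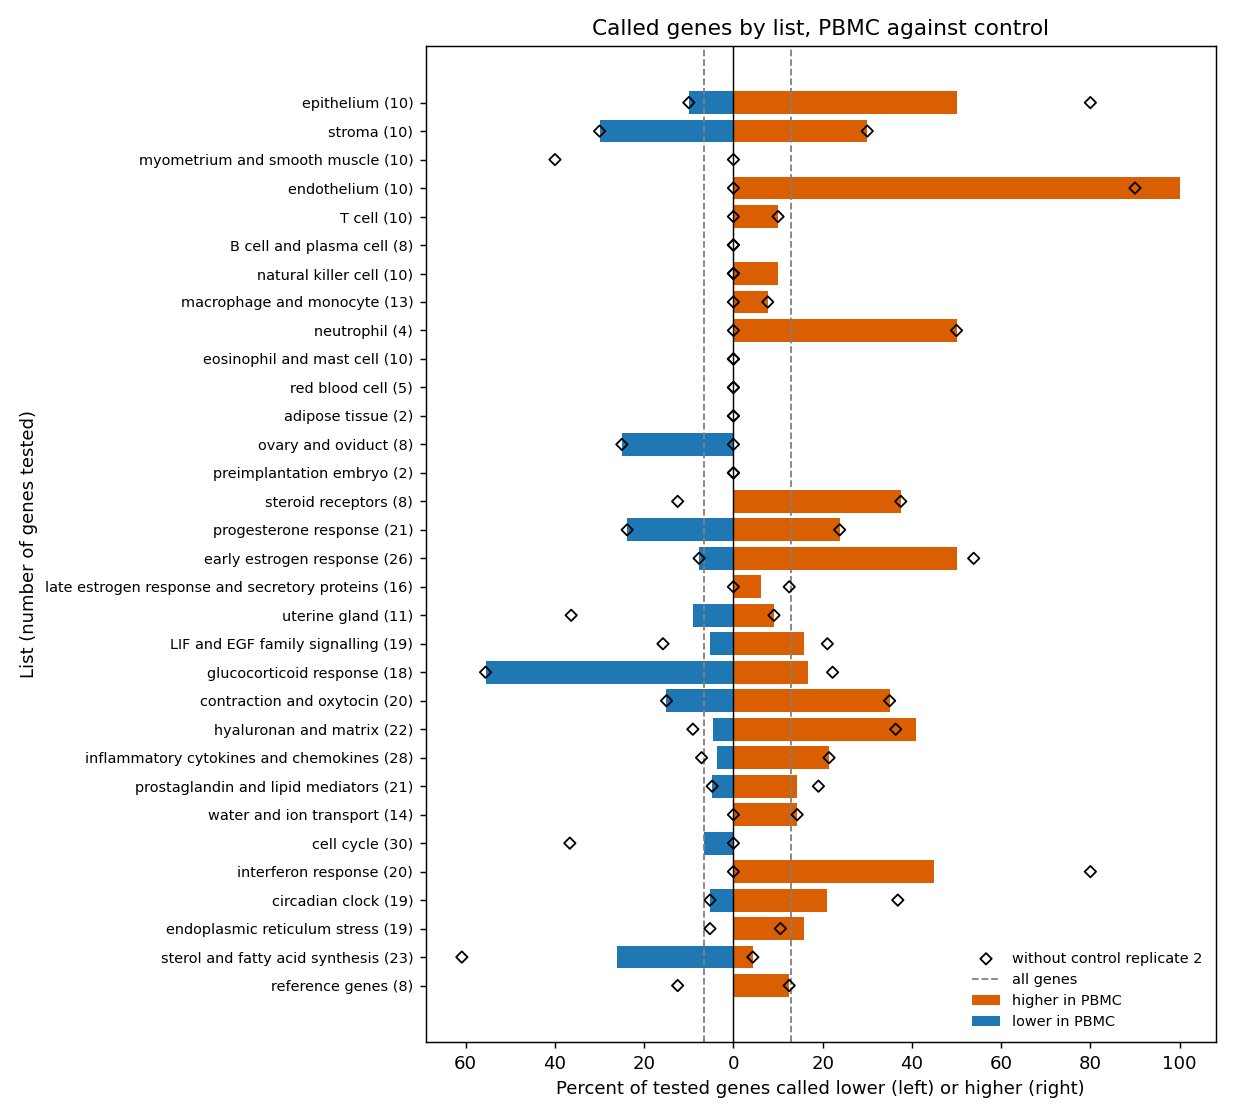
Percent of tested genes called higher (orange, right) and lower (blue, left) in PBMC against control mice at an adjusted p under 0.05 for each pathway and cell marker list, with dashed lines at the share of all 18706 genes (12.8% higher, 6.7% lower); open diamonds give the same shares without control replicate 2. The dashed lines belong to the fit with all mice. The fit without control replicate 2 called 2652 of the 18706 genes higher and 1976 lower. The endothelial list reaches 100% higher, the glucocorticoid list 55.6% lower, and the cell cycle list moves from 6.67% to 36.7% lower without control replicate 2.

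Genes of uterine contraction changed in both directions. Oxtr, the oxytocin receptor gene, rose from 5.802, 19.6, 6.21, 9.06 and 8.499 TPM to 44.6, 44.4, 69.3, 35.1 and 176 TPM (log2 fold change 2.77 ± 0.47 (SE), adjusted p = 3.57e-04). Ednra, the contracting endothelin receptor gene, rose from a range of 27.03 to 43.6 TPM to one of 57.3 to 73.6 TPM (log2 fold change 0.80 ± 0.12 (SE), adjusted p = 1.28e-04). Ptger3, a prostaglandin E receptor gene, fell from 44.6, 45.4, 59.3, 48.1 and 42.01 TPM to a range of 11.3 to 13.5 TPM (log2 fold change -1.90 ± 0.13 (SE), adjusted p = 3.02e-08). Ednrb, the second endothelin receptor gene, fell from a range of 29.6 to 80.00 TPM to one of 13.04 to 17.6 TPM (log2 fold change -1.24 ± 0.19 (SE), adjusted p = 1.76e-04), and Ramp1 from a range of 50.8 to 82.01 TPM to one of 18.9 to 29.1 TPM (log2 fold change -1.38 ± 0.17 (SE), adjusted p = 1.64e-05). Oxtr, Ednra, Ptger3, Ednrb and Ramp1 did not overlap between groups, which held for 12.7% of all genes tested. In all, 7 of 20 genes rose (35%, against 12.8% of all genes) and 3 fell (15%, against 6.7%). The gap junction gene Gja1 and the prostaglandin F receptor gene Ptgfr were not called (adjusted p = 0.957 and 0.825). Of 10 smooth muscle markers none passed, Myh11 included (log2 fold change -0.01, adjusted p = 0.961), with a summed level of 7374 to 13588 TPM in control and 7526 to 9184 TPM in PBMC mice. Without control replicate 2, however, 4 passed as lower, among them Acta2 (log2 fold change -0.47, adjusted p = 0.00454). That fit called 1976 of 18706 genes lower.

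Of 22 matrix genes, 9 rose (40.9%, against 12.8% of all genes) and 1 fell (4.55%, against 6.7%). Tnc is also on the study's list of PCR primers, so its direction is not independent evidence. Tnc, the matrix protein tenascin C, was at 29.4, 7.03, 19.4, 20.1 and 22.8 TPM in control and 87.8, 90.9, 105, 32.5 and 242 TPM in PBMC mice (log2 fold change 2.35 ± 0.60 (SE), adjusted p = 0.00929), where replicate 4 was close to control replicate 1. Mmp11, a stromal metalloproteinase, rose from 21.5, 66.6, 25.7, 23.5 and 20.5 TPM to 97.5, 88.9, 86.7, 85.9 and 94.97 TPM (log2 fold change 1.68 ± 0.26 (SE), adjusted p = 1.92e-04), with control replicate 2 the only control mouse above 26 TPM. Lox, which crosslinks collagen, rose from a range of 53.9 to 77.9 TPM to one of 147 to 183 TPM (log2 fold change 1.27 ± 0.14 (SE), adjusted p = 5.32e-06). Thbs1, thrombospondin, rose from a range of 34.4 to 79.4 TPM to one of 85.6 to 296 TPM (log2 fold change 1.66 ± 0.34 (SE), adjusted p = 0.00171). The proteoglycan genes Dcn (1653 to 1978 TPM in control, 2735 to 3518 TPM in PBMC mice, log2 fold change 0.87 ± 0.09 (SE), adjusted p = 1.74e-06) and Lum (log2 fold change 1.05 ± 0.20 (SE), adjusted p = 0.001), listed as stromal markers, rose as well.

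The counts of gland and cell cycle genes called lower were larger without control replicate 2. Lif, the cytokine needed for attachment, was at 22.2, 0.976, 13.8, 19.3 and 3.08 TPM in control and 3.75, 1.95, 5.699, 2.46 and 3.83 TPM in PBMC mice. It was not called with all mice included (log2 fold change -1.10 ± 0.66 (SE), adjusted p = 0.272), and fell without control replicate 2 (log2 fold change -1.79, adjusted p = 0.0182). Foxa2, the master factor of the glands, was not called with all mice included (log2 fold change -0.50, adjusted p = 0.0905), and fell without that mouse (-0.59, adjusted p = 0.0476) or with all mice after quantile normalization (-0.53, adjusted p = 0.0456). Prss28 was at 79.4, 4739, 53.3, 90.3 and 1206 TPM in control and 157, 284, 362, 395 and 290.2 TPM in PBMC mice and was not called with or without control replicate 2. Without control replicates 2 and 5, a fit chosen after seeing the data, it was higher (log2 fold change 1.97, adjusted p = 0.0129). Sox9, a progenitor factor of the glands, rose (log2 fold change 0.80 ± 0.17 (SE), adjusted p = 0.00244). Ovgp1, the oviductal glycoprotein gene that uterine glands also express, fell from 20.2, 19.6, 19.01, 25.6 and 22.5 TPM to 5.65, 5.52, 8.66, 5.76 and 7.64 TPM (log2 fold change -1.69 ± 0.30 (SE), adjusted p = 5.32e-04). Of 11 gland genes tested, 1 rose and 1 fell (18.2% called, near the 19.5% of all genes). Without control replicate 2 there were 4 lower (36.4%) and 1 higher, in a fit that called 1976 of 18706 genes lower and 2652 higher.

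Of 30 cell cycle genes, 2 fell and none rose, a share of 6.67% lower beside 6.7% of all genes. The number called was 11, all lower, without control replicate 2, in a fit that called 1976 of 18706 genes lower. It was 4 without control replicate 5, where the list median was 0.84 and the direction of the calls is not given here. It was 1 in 6 of the other fits that left out a mouse. The number was also 1 with no filter, with no variance trend, with only the compared groups and with a replicate block. The median log2 fold change of the list was 0.47 with all mice, with 18 of 30 genes above 0, and -0.22 without control replicate 2. The 6 genes of the replicative helicase are given in both fits. Mcm7 fell with all mice included (69.3, 45.6, 65.1, 63.00 and 80.3 TPM against 46.00, 48.6, 45.1, 48.7 and 37.5 TPM, log2 fold change -0.50 ± 0.11 (SE), adjusted p = 0.00443). Mcm2 was at 47.1, 11.3, 39.9, 35.6 and 56.9 TPM and 20.2, 21.7, 21.1, 21.8 and 19.7 TPM and went from a log2 fold change of -0.69 (adjusted p = 0.141) to -1.08 (adjusted p = 8.12e-04) when that mouse was left out. Mcm3, Mcm4, Mcm5 and Mcm6 also passed only then, with log2 fold changes of -0.95, -0.86, -1.05 and -0.86, as did cyclin E1, Ccne1 (-1.68, adjusted p = 0.00255). The mitotic genes Mki67, Top2a and Ccnb1 were not called with it (log2 fold change 0.96, 0.78 and 0.92) or without it (0.28, -0.09 and 0.12). The helicase genes were chosen after their values were seen.

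**Figure D3:**
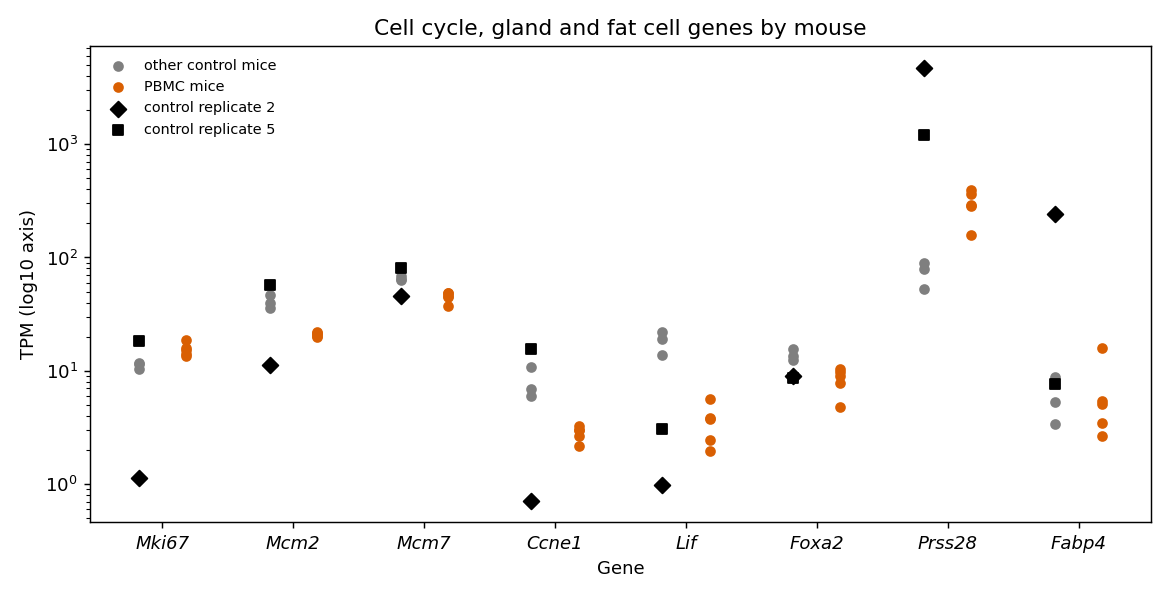
TPM (log10 axis) of Mki67, Mcm2, Mcm7, Ccne1, Lif, Foxa2, Prss28 and Fabp4 in each control (grey) and PBMC (orange) mouse, with control replicate 2 as a black diamond and control replicate 5 as a black square. Control replicate 2 is the lowest control mouse for Mki67, Mcm2, Mcm7, Ccne1 and Lif and the highest for Prss28 and Fabp4.

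All 10 endothelial markers rose, against 12.8% of all genes, with a median log2 fold change of 0.45, and they are the only list with every tested member called. Pecam1 rose from 139.8, 122, 136, 139 and 118 TPM to 165, 168, 166, 176 and 161 TPM (log2 fold change 0.35 ± 0.05 (SE), adjusted p = 1.30e-04). Eng, a receptor of the TGF-beta family, rose from 120.3, 74.1, 115, 115 and 97.5 TPM to 170.0, 181, 186, 172 and 207 TPM (log2 fold change 0.83 ± 0.15 (SE), adjusted p = 5.57e-04). The lymphatic factor Prox1 rose too (log2 fold change 0.67 ± 0.16 (SE), adjusted p = 0.00499). The summed endothelial level was 481 to 649.9 TPM in control and 803 to 867 TPM in PBMC mice, which did not overlap. The count was 9 after median scaling or quantile normalization, and 9 without control replicate 2, where Flt1 was not called (adjusted p = 0.0645). Among 10 epithelial markers, 5 rose (50%, against 12.8% of all genes) and 1 fell (10%, against 6.7%). Krt8 (log2 fold change 0.62 ± 0.13 (SE), adjusted p = 0.00277) and Cdh1 (log2 fold change 0.40 ± 0.09 (SE), adjusted p = 0.00251) were higher. Cldn3, a tight junction claudin, fell from 298, 311, 349, 349 and 188 TPM to 147, 164, 131, 164 and 112 TPM (log2 fold change -1.04 ± 0.20 (SE), adjusted p = 9.61e-04). Without control replicate 2, 8 rose, in a fit that called 2652 of 18706 genes higher.

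Few markers of the cell types in the injected blood fraction differed. Of 10 T cell markers tested, only Trac, the constant part of the T cell receptor alpha chain, passed (4.105, 3.19, 3.395, 3.02 and 3.64 TPM in control, 5.34, 8.09, 9.59, 6.86 and 5.69 TPM in PBMC mice, log2 fold change 0.99 ± 0.19 (SE), adjusted p = 9.53e-04), while Cd3d, Cd3e and Cd3g did not (adjusted p = 0.876, 0.204 and 0.446). Trac did not overlap between groups, which held for 12.7% of all genes tested. The summed T cell level was 30.2 to 42.1 TPM in control and 38.1 to 54.4 TPM in PBMC mice. Of 8 B and plasma cell markers tested none passed. Igkc, the kappa light chain gene, was at 2631, 1331, 3144, 2035 and 751 TPM in control and 625, 270.2, 1278, 267 and 1214 TPM in PBMC mice (log2 fold change -1.58 ± 0.77 (SE), adjusted p = 0.169). Jchain had a log2 fold change of -1.66 ± 0.80 (adjusted p = 0.165). The summed B and plasma cell level was 1261 to 5174 TPM in control and 483 to 2086 TPM in PBMC mice, with overlap. Among natural killer and macrophage markers 1 of 10 and 1 of 13 were called, shares below the 19.5% of all genes, and each call was lost in 6 of the 10 fits that left out 1 mouse. They were Gzma (adjusted p = 0.0461, up to 0.0970), a granzyme gene, and C1qc (adjusted p = 0.0323, up to 0.0772), a complement gene. The donor and host cells were of the same species, so their RNA cannot be told apart here.

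Neutrophils are not mononuclear cells, and their markers are given apart. Of 4 tested, 2 rose, the calprotectin genes (50%, against 12.8% of all genes). S100a9 was at 3.05, 0.5296, 1.85, 2.33 and 1.52 TPM in control and 9.85, 14.4, 12.5, 11.3 and 9.16 TPM in PBMC mice (log2 fold change 2.72 ± 0.47 (SE), adjusted p = 4.08e-04). S100a8 was at 1.86, 2.38, 1.47, 0.987 and 5.01 TPM and 5.14, 10.3, 7.09, 5.69 and 5.47 TPM (log2 fold change 1.64 ± 0.44 (SE), adjusted p = 0.0129). The groups in S100a8 were separated by a narrow margin. The summed neutrophil level overlapped, at 75.2 to 172 TPM in control and 141 to 264 TPM in PBMC mice. The other 2 neutrophil markers tested, Retnlg and Csf3r, were not called (adjusted p = 0.425 and 0.262). The other 6 markers were listed at 0 in at least 1 mouse and were not tested. Cxcr2, a neutrophil chemokine receptor, was at 0 to 0.148 TPM in control and 0.282 to 0.705 TPM in PBMC mice, which did not overlap. No overlap held for 12.7% of all genes tested. The IF mice, at 0.237 to 0.730 TPM, were also above every control mouse for Cxcr2. Mmp8, a granule protease, was listed at 0 in all control mice and in PBMC replicate 2, and was at 0.046 to 0.151 TPM in the other PBMC mice. Ly6g was at 0 to 0.41 TPM in control and 0.241 to 0.878 TPM in PBMC mice. Of the granule genes Elane, Camp and Ngp, Elane was listed at 0 in all mice of both groups, Camp was above 0 in control replicate 1 alone, and Ngp was above 0 in PBMC replicates 3 and 5 alone.

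Of 20 interferon-stimulated genes 9 rose and none fell (45%, against 12.8% of all genes higher), with a median log2 fold change of 0.69. Isg15, a ubiquitin-like antiviral protein, rose from 35.7, 35.7, 38.8, 30.2 and 31.2 TPM to 51.8, 89.2, 59.4, 120.0 and 77.1 TPM (log2 fold change 1.15 ± 0.26 (SE), adjusted p = 0.00404). Mx1, an antiviral GTPase, was at 1.81, 4.19, 2.04, 1.58 and 1.25 TPM and 4.18, 6.61, 3.56, 9.78 and 4.16 TPM (log2 fold change 1.36 ± 0.36 (SE), adjusted p = 0.0123). Usp18, which removes Isg15 from proteins, was at 11.1 to 16.3 and 19.7 to 40.3 TPM (log2 fold change 1.02 ± 0.24 (SE), adjusted p = 0.0046). PBMC replicate 4 was the highest mouse in all 3, and Mx1 alone overlapped, through control replicate 2. The count depended on single mice: it was 16 without control replicate 2, in a fit that called 2652 of 18706 genes higher. It was 5 without PBMC replicate 2, PBMC replicate 4, control replicate 3 or control replicate 5, and it was 15 with a replicate block.

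Of 28 cytokine and chemokine genes tested, 6 rose, 1 fell and 21 did not pass (25% called, near the 19.5% of all genes). Ccl11, the eosinophil attractant eotaxin, rose from 18.3, 18.3, 18.5, 19.5 and 15.99 TPM to 61.8, 54.9, 69.2, 52.4 and 122 TPM (log2 fold change 1.91 ± 0.21 (SE), adjusted p = 4.08e-06). Ackr3, a scavenging chemokine receptor, rose from a range of 39.8 to 49.8 TPM to one of 88.1 to 214 TPM (log2 fold change 1.45 ± 0.24 (SE), adjusted p = 3.03e-04). Il17ra, the interleukin 17 receptor gene, rose from a range of 14.8 to 17.7 TPM to one of 27.8 to 43.2 TPM (log2 fold change 0.91 ± 0.15 (SE), adjusted p = 2.70e-04). Ccl11, Ackr3 and Il17ra are also on the study's list of PCR primers, so their direction is not independent evidence. The mucosal chemokine gene Ccl28 fell (log2 fold change -2.36 ± 0.51 (SE), adjusted p = 0.00274). Il1b and Tnf were low, at 0.591 to 3.12 and 0.485 to 0.918 TPM in control mice, and not called (adjusted p = 0.145 and 0.597). Eosinophil and mast cell markers gave no call among 10 tested.

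Of 23 genes of sterol and fatty acid synthesis, 6 fell (26.1%, against 6.7% of all genes) and 1 rose (4.35%, against 12.8%), the falls including Lss (log2 fold change -0.57 ± 0.12 (SE), adjusted p = 0.00181). Without control replicate 2, 14 fell and 1 rose, with Sqle at -1.32 (adjusted p = 0.00962), in a fit that called 1976 of 18706 genes lower. Without PBMC replicate 3, or with only the compared groups fitted, the genes called were 4 in all. In the clock, Arntl rose from 9.300, 6.78, 8.94, 9.31 and 8.98 TPM to 16.1, 15.5, 18.1, 17.8 and 20.6 TPM (log2 fold change 1.02 ± 0.12 (SE), adjusted p = 1.49e-05), opposite to Per1. Of 21 prostaglandin and lipid mediator genes, 3 rose and 1 fell (19% called, near the 19.5% of all genes). The sphingosine phosphate receptor gene S1pr3 led them (log2 fold change 1.04 ± 0.18 (SE), adjusted p = 5.50e-04). Ptgs1 and Ptgs2, the cyclooxygenase genes, were not called (adjusted p = 0.78 and 0.164). Of 14 water and ion transport genes tested, 2 rose (14.3%, near the 12.8% of all genes) and none fell. The water channel gene Aqp1, which was one of them, lost its call in 9 of the 10 fits that left out a mouse (adjusted p up to 0.103). Of 19 genes of endoplasmic reticulum stress, 3 rose (15.8%, near the 12.8% of all genes), none of them the chaperone gene Hspa5 (adjusted p = 0.989). The lists not described above follow with the share called, to be set against 19.5% of all genes. Late estrogen response had 1 higher of 16 tested (6.25%), and LIF and EGF family signalling 3 higher and 1 lower of 19 (21.1%). The clock list had 4 higher and 1 lower of 19 (26.3%), and stroma markers 3 higher and 3 lower of 10 (60%). Red blood cell markers had none of 5 and the reference genes 1 higher of 8 (12.5%). Ovary and oviduct markers had 2 lower of 8 (25%). That count was 1 in several other fits, among them those with no filter, with a replicate block and with only the compared groups.

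The IF group was used to ask which of these differences were also measured in mice given RU486 without cells. The PBMC and IF contrasts share the 5 control mice, so their values are set side by side and the test of the difference is PBMC against IF. No gene passed that test (limma) at an adjusted p under 0.05, while 1271 of 18706 (6.79%) had a raw p under 0.05 and 82 (0.438%) also differed by at least 2-fold. List medians against control were 0.69 in PBMC and 0.71 in IF mice for interferon genes. They were 0.45 and 0.44 for endothelial markers, -0.63 in both for glucocorticoid genes, and 0.83 and 1.06 for early estrogen genes. Other lists lay farther apart, such as neutrophil markers (1.07 and 0.39) and endoplasmic reticulum stress genes (-0.11 and 0.27). Differences between these medians were not tested. Against control, the IF group had log2 fold changes of -3.95 for Zbtb16, -4.20 for Il13ra2, -1.81 for Fkbp5 and -1.89 for Igf1, where the PBMC group had -3.87, -4.11, -1.87 and -1.88. The PBMC minus IF differences of these 4 genes were 0.08 ± 0.23, 0.08 ± 0.25, -0.06 ± 0.15 and 0.01 ± 0.16. For Inhbb the IF value was 5.24, for Oxtr 3.92, for Ramp3 3.20 and for Gadd45g 3.04. The PBMC minus IF differences of these 4 were -1.38 ± 0.50, -1.14 ± 0.47, -1.04 ± 0.41 and -1.08 ± 0.36, with raw p of 0.0127, 0.0245, 0.02 and 0.00681 and adjusted p (limma) of 0.673, 0.701, 0.701 and 0.628.

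**Figure D4:**
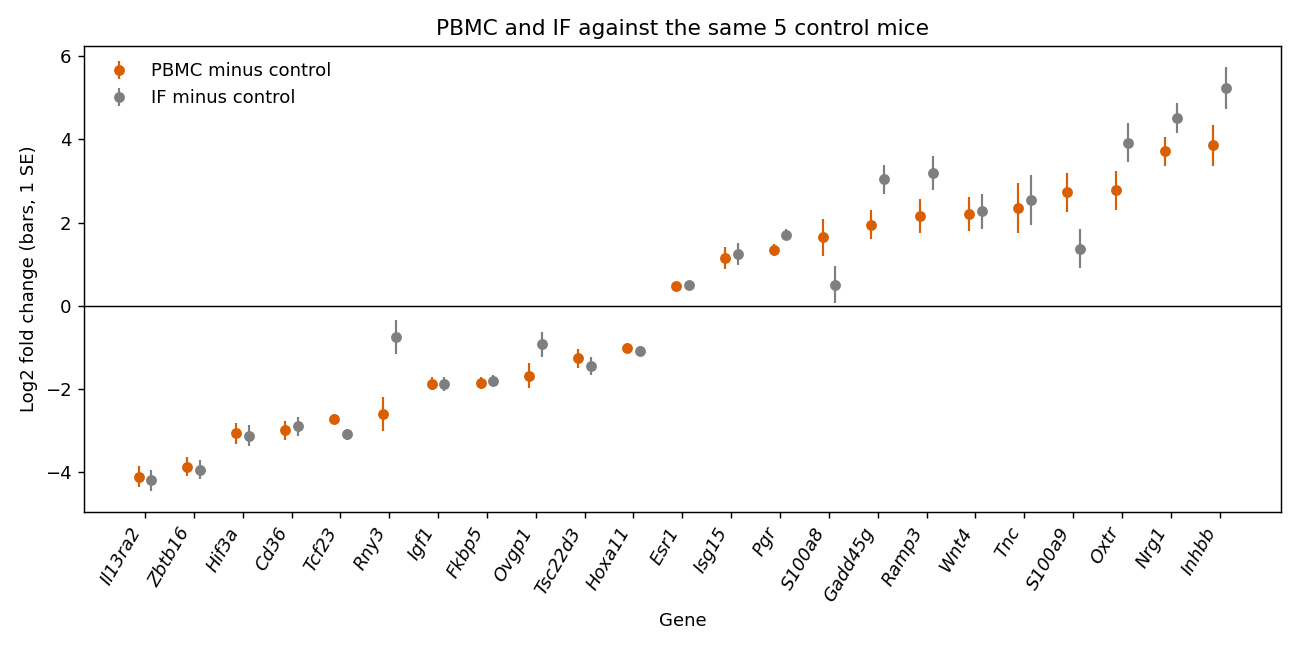
Log2 fold change against control, with bars of 1 SE, for the PBMC group (orange) and the IF group (grey) in 23 named genes ordered by the PBMC value; both groups were measured against the same 5 control mice. The values of the 2 groups lie close together for Zbtb16, Il13ra2 and Igf1, PBMC lies below IF for Inhbb, Oxtr and Ramp3, and PBMC lies beyond IF for S100a9 and Rny3.

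A few genes differed from control and from IF in the same direction by at least 2-fold with raw p under 0.05, 8 higher and 14 lower, before adjustment for the 18706 tests. Another 13 genes met both criteria in opposite directions. S100a9 was at 6.58, 3.91, 1.72, 2.46 and 14.1 TPM in IF mice, of which only replicate 5 lay within the PBMC range. PBMC was above IF by 1.35 ± 0.47 for S100a9 and by 1.13 ± 0.44 for S100a8 (adjusted p = 0.667 and 0.701). Sv2c, a synaptic vesicle gene, was higher as well, by 1.12 ± 0.50, and lost its call against control without PBMC replicate 3 or 5 (adjusted p 0.0509 and 0.0519). Among the genes lower than both was Rny3, a small non-coding Y RNA, at 10.4, 8.596, 9.98, 10.3 and 11.2 TPM in control, 6.11, 5.61, 3.905, 7.66 and 7.16 TPM in IF and 2.56, 0.5404, 1.58, 2.28 and 1.82 TPM in PBMC mice. The PBMC minus IF difference was -1.85 ± 0.40 (adjusted p = 0.296). The others named by the same rule were Rnu1a1, a U1 small nuclear RNA gene (-1.21 ± 0.42), ccdc198 (-1.53 ± 0.68) and the receptor gene Gpr83 (-1.85 ± 0.65). PBMC and control mice overlapped in Rnu1a1. Gpr83 lost its call against control without PBMC replicate 4 (adjusted p = 0.0672). In ccdc198 the PBMC and control mice overlapped, and the call against control was lost without PBMC replicate 1 or 2 or control replicate 2 or 5 (adjusted p 0.0603 to 0.0901), with no filter, with a pseudocount of 1 and with only the compared groups fitted. Y and U1 RNAs are short and lack a poly(A) tail, while the libraries were made from polyadenylated RNA, and the part of this in the differences was not tested. Ovgp1 was at 6.22 to 18.9 TPM in IF mice, which overlapped the PBMC range, and the PBMC minus IF difference was -0.76 ± 0.30 (adjusted p = 0.701).

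Mice within the PBMC group were not uniform. PBMC replicate 5 was the farthest from its group mean, at a distance of 53.2 against 32.4 to 40.3 for the other 4. It had the highest values of the group for Inhbb, Nrg1, Cemip, Dio2, Nppc, Plk2, Oxtr, Ramp3, Gadd45g, Tnc and Wnt4 and the lowest for Slc26a7, Zbtb16, Il13ra2, Hif3a and Cyp1b1. In these genes it lay farther from the control mice than the other PBMC mice did, except for Slc26a7, where it lay nearest to them. The PBMC group was more variable than control (larger SD of log2 values) in 40.3% of genes, and in 61.1% without control replicate 2. Among genes of at least 10 TPM the largest ratios of the SDs were in Anks1, Cc2d2a, Filip1, Rpl38-ps2 and Evc (10.2, 10.2, 9.29, 8.83 and 8.43). These ratios rest on control SDs from 5 mice and moved when single mice were left out. The range was 3.05 to 45.3 for Rpl38-ps2, 2.98 to 12.3 for Evc and 4.89 to 19.1 for Filip1. In Filip1 the control mice lay within 19.5 to 20.7 TPM and the PBMC mice within 14.8 to 24.8 TPM.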

How the data were processed

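RNA was measured in 1 uterine horn of each of 20 mice, 5 in each of 4 groups. Per the study's methods, poly(A) libraries were prepared with a stranded TruSeq kit and sequenced on a NovaSeq instrument. The submitters' processing notes name Trimmomatic, HISAT2, StringTie and the mm10 build, and versions and annotation release are not given in the sources used here. What the authors deposited is TPM for each gene, scaled by length and to a fixed total, so depth is unknown and a gene's TPM depends on all others.

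Genes with TPM above 0 in all 20 libraries were kept, log2(TPM + 0.1) was computed, and the 4 groups were fitted together with limma 3.58.1 (variance trend, R 4.3.3), with Benjamini-Hochberg adjustment over 18706 genes. A log2 fold change is on the log2(TPM + 0.1) scale and understates the change of low genes. Because the values were TPM, no count test was run, while the study tested counts. The labels give no batch or date. The code was tested on simulated data. Tables and figures were made with Python 3.11.15, pandas 2.3.3, scipy 1.17.1 and matplotlib 3.10.9. Gene coordinates and promoter windows are from RefSeq on GRCm38.p6, and 18662 of the tested genes had an entry.

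Genes were named by rule: the 10 largest rises and falls with an adjusted p under 0.05, a mean of at least 1 TPM in either group and no overlap; in each list the first 3 members and up to 4 other called members; up to 4 genes on either side that were DEGs against both control and IF; and the 5 genes of at least 10 TPM with the largest ratio of SDs. 4933406B17Rik, Camp, Ccne1, Csf3r, Cxcr2, Egr1, Elane, Fabp4, Flt1, Gnmt, Igkc, Jchain, Mcm2 to Mcm6, Mmp8, Ngp, Pde10a, Pgrmc2, Retnlg, Slc10a6, Sqle, Zfp42, Zp3 and Cdx2 fell outside that rule and were chosen after their values were seen, as were the promoters shown. Adamts1, Adamts4 and Vegfa are named without values. Some genes that the rule names are not reported here. The comparison and the gene lists were chosen with earlier results of these data known. Alternatives were other pseudocounts, filters and scalings, a fit of the compared groups alone, no variance trend, a replicate block and leaving out each mouse. The fit without control replicates 2 and 5 was chosen after seeing the data.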

Additional observations from a re-analysis of the deposited data

Results flagged for a closer look

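Among the genes named, 256 groups of 5 mice were examined for a mouse whose gap to its nearest neighbour on the log2 scale exceeded 0.710 of the range of the group, which chance gives in about 1 in 20 groups. Some of the genes, among them Fabp4, Mcm3, Mcm4 and Mcm6, were chosen after their values were seen, so a count of such values cannot be set against that chance. There were 28 such values, 19 of them in control replicate 2. In that mouse they were high for Aqp1 (385 TPM), Fabp4 (242), Ednrb (80.00), Hoxa10 (281), Krt18 (372), Mmp11 (66.6), Msc (38.1), Ramp3 (77.01) and Usp18 (16.3), and low for the rest: Arntl (6.78), Gzma (7.56), Lum (214), Mcm3 (11.5), Mcm4 (13.8), Mcm6 (13.6), Mki67 (1.14), Mt2 (274), Sv2c (0.0557) and Top2a (2.42 TPM).

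The other control values were in replicate 5, for Cdh1 (40.2 TPM), Cldn3 (188 TPM) and Rpl38-ps2 (12.2 TPM). In the PBMC group they were Il17ra (43.2 TPM), S1pr3 (8.02 TPM) and Slc10a6 (3.89 TPM) in replicate 5, Mcm6 in replicate 4 (32.02 TPM), Msc in replicate 2 (50.6 TPM) and Rpl38-ps2 in replicate 1 (5.08 TPM).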

How the results depend on the processing

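The count of genes at an adjusted p under 0.05 stayed within 1.5 times its value under every alternative run, with 2959 to 4628 genes on leaving out single mice, the most without control replicate 2. The 625 DEGs became 1088 with no filter on low values, 322 with a pseudocount of 1 and 1842 with a fold of at least 1.5, and 619 to 728 when each mouse was left out. Against IF, 1 gene passed with no filter, and 0 to 2 when each mouse was left out, the 2 without IF replicate 1. The difference in distance from the group mean (PBMC minus control) went from -8.58 to 3.12 without control replicate 2 (p = 0.548, exact permutation test), within a range of -14.4 to 3.12 over all mice left out. Without control replicates 2 and 5 there were 3874 genes at an adjusted p under 0.05 and 814 DEGs. Same-numbered PBMC and control mice had correlations of -0.05 to 0.27 between their deviations from the group means, and 2 of 5 correlated best with their own number, so the numbers were not taken to pair the mice. With a replicate block 3638 genes and 627 DEGs passed, and 15 interferon genes.

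Of 123 named genes, 90 kept direction and side of the threshold in every fit. In some fits 10 genes changed sign, none of them called with all mice included. Leaving out 1 mouse gave log2 fold changes of -0.15 to 0.24 for Cd3d, -0.15 to 0.0752 for Gapdh, -0.22 to 0.17 for Gja1 and Hspa5, -0.0678 to 0.0455 for Myh11, -0.66 to 0.95 for Prss28, -0.0654 to 0.40 for Ptgfr, -0.32 to 0.12 for Ptgs1 and -0.0860 to 1.19 for Top2a. Gapdh was at 0.0241 with quantile normalization and Hspa5 at -0.0258 with median scaling. Without control replicates 2 and 5, Cd3d was at -0.11, Gja1 at 0.21, Hspa5 at -0.0232, Ihh at -0.10, Prss28 at 1.97, Ptgfr at -0.18 and Ptgs1 at 0.17, and only Prss28 passed the threshold among them (adjusted p = 0.0129). The causes were not tested. Depth is unknown, so low values carry an unknown counting error.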
